A study of Rattus norvegicus with 6 samples.

Results

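DNA replication and S phase genes were examined in rat adipose-derived mesenchymal stem cells, the stromal cells that grow out of fat tissue. The 36 genes were chosen by symbol for their roles in origin licensing, the replicative helicase, DNA polymerases, nucleotide supply and the entry into S phase. All 36 were found among the 21857 genes of the deposited count table, and all 36 passed the filter on low counts, as did 12298 genes in all. The cells came from Sprague Dawley rats and were grown in medium without the branched chain amino acids leucine, isoleucine and valine (BCAA), which held serum. For 12 h, 3 samples received vehicle and 3 received 3.432 mM BCAA, and all 6 were also given 100 µM hydrogen peroxide, an oxidant. The hydrogen peroxide was thus shared by both groups. The sources used here do not give the animals' age, what the vehicle was, the makeup of the BCAA mix, or whether each replicate was a separate animal or culture. P-values therefore measure the spread between these samples, which may be partly technical. BCAA against vehicle is the one comparison of the design.

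A cell copies its genome once per division, in steps that many of these genes name. In G1 the origin recognition complex, with Cdc6 and Cdt1, loads the ring of Mcm2 to Mcm7 onto origins, which is called licensing. At the start of S phase the kinases Cdc7 and Cdk2 act, and Cdc45 and the GINS complex join that ring. The resulting helicase, called CMG, unwinds DNA for the polymerases. E2F transcription factors, held back by the retinoblastoma protein until G1 cyclins and their kinases act, drive transcription of many of these genes at the G1/S border, so their RNA is commonly read as a sign of dividing cells.

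Library totals ran from 12725344 to 15739731 counts. The stromal markers were high, with Cd44 at 1458 and Thy1 at 347.5 CPM with vehicle (CPM is a gene's count scaled to one common library total). Markers of endothelial, fat and epithelial cells, each set summed alone, came to under 7 CPM in every library. Markers of myeloid leukocytes were present, with Lyz2 at 714 ± 85.1, Cd68 at 29.6 ± 1.1, Csf1r at 16.8 ± 0.940 and Ptprc at 15.1 ± 1.01 CPM with vehicle (SD, n = 3), while the T cell gene Cd3e had no count. The 6 leukocyte markers found summed to 712 to 843 CPM with vehicle and to 672 to 710 CPM with BCAA. Lyz2 made up most of that sum and was lower with BCAA, at 622 ± 25.8 CPM. The means of Cd68, Csf1r and Ptprc were slightly higher with BCAA, at 31.4, 17.9 and 16.2 CPM, with overlapping groups. Smooth muscle markers summed to 882 to 946 CPM with vehicle and to 605 to 635 CPM with BCAA. Most of that sum was Tagln, whose mean was 794 CPM in the vehicle libraries and 519 CPM under BCAA. Tagln and Acta2 were lower with BCAA (edgeR's adjusted p = 0.000357 and 0.000586). They were 2 of the 28 genes that passed an adjusted p of 0.05 in that test. Whether the leukocyte and smooth muscle marker levels reflect separate cells was not tested, nor was their part in the levels below. Vehicle replicate 1 stood apart, being the lowest of the 6 libraries for 24.7% and the highest for 23.6% of all genes tested, where the other 5 libraries were lowest for 10.9% to 19.3% and highest for 11.8% to 20.9%.

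None of the 36 replication genes passed an adjusted p of 0.05 between BCAA and vehicle (edgeR's quasi-likelihood test, Benjamini-Hochberg over all genes), where 0.228% of all genes tested passed (0.0569% higher and 0.171% lower). The smallest adjusted p among them was 0.144, that of Cdc45. At an unadjusted p under 0.05 there were 5 of the 36 genes (13.9%), beside 11.8% of all genes tested, so their share was near that of genes at large. Of these, 4 were higher with BCAA, beside 5.95% of all genes, and 1 was lower, beside 5.84%. DESeq2 gave an adjusted p for 10 of the 36 genes, called 0 of them and called 1.75% of the genes it adjusted, and 3 of the 36 genes had an unadjusted p under 0.05 in it, beside 6.77% of all genes. In sign, 26 of the 36 genes (72.2%) had a fold change above 0, beside 50.8% of all genes tested, and 30 of the 36 without scaling factors, beside 58.0% of all genes. The median log2 fold change of the 36 genes was 0.10 (a value of 1 is a doubling), beside 0.0035 over all genes tested, and without vehicle replicate 3 it was 0.057. In 5 genes (13.9%) all 3 BCAA libraries lay above all 3 vehicle libraries, beside 9.29% of all genes tested, and in 1 gene (2.78%) all lay below, beside 8.76%. In RNA from whole cultures, a change in the number of cells in S phase and a change in RNA per cell cannot be told apart.

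**Figure D1:**
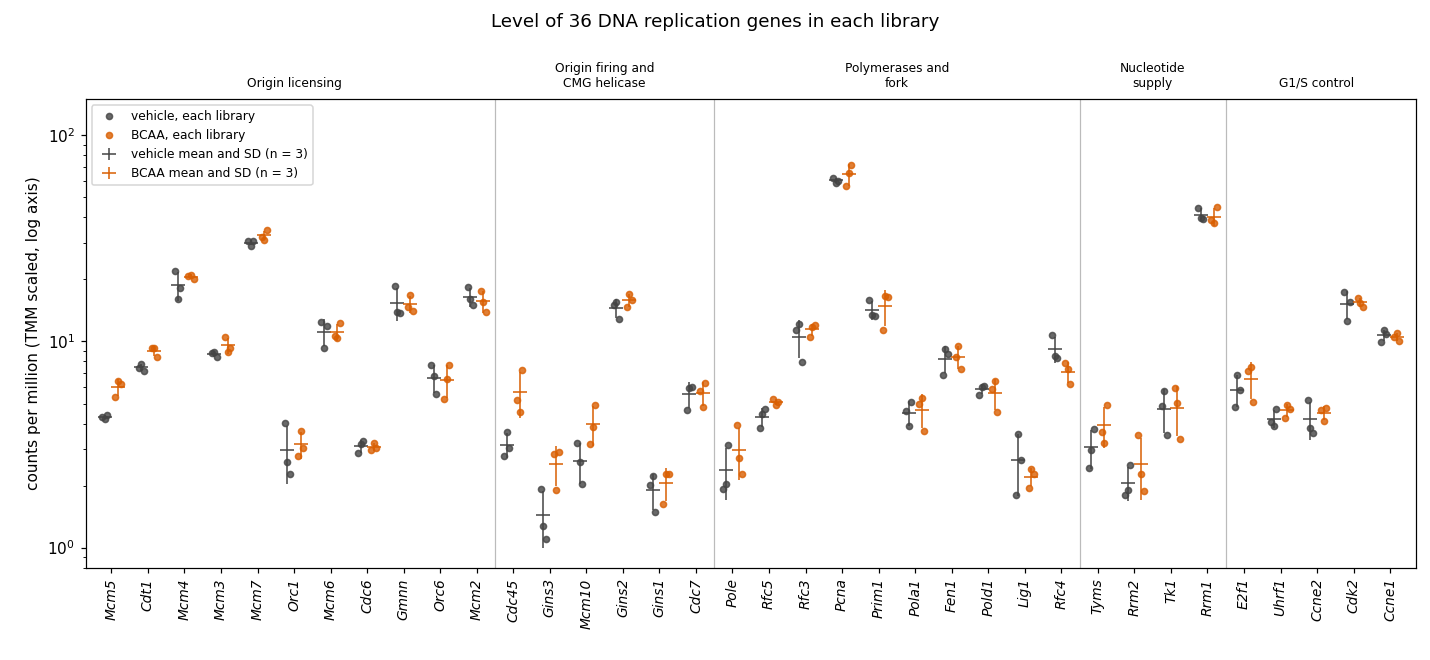
Level of each gene in each library, in CPM on a log axis, by role. Points are the 3 vehicle (grey) and 3 BCAA (orange) libraries, and bars are the mean and SD. The groups overlap for most genes. They are clear of each other for Cdc45, Mcm5, Cdt1, Mcm7 and Rfc5 (BCAA above) and for Rfc4 (BCAA below).

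The promoters of the 5 genes with an unadjusted p under 0.05 are shown because these genes had the smallest p-values and because E2F is the textbook regulator of the group. Each line gives the 160 bases just before the annotated start, from RefSeq on build GRCr8, in the direction of transcription. Capitals mark matches on either strand. The motifs were 2 core forms of an E2F site, TTGGCGC and TTCCCGC, and CCAAT, the box bound by NF-Y, which reads ATTGG on the other strand. These motifs can overlap by their shared letters.
Cdc45 (chr11:95690018-95690177, plus strand): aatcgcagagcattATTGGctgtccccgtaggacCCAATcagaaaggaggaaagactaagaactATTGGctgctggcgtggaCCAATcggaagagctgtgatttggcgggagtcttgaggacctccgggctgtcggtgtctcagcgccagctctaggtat
Mcm5 (chr19:13488653-13488812, plus strand): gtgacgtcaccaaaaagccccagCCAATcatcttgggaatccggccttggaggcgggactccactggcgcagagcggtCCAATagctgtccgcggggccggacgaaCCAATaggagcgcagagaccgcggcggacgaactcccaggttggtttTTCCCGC
Gins3 (chr19:9434680-9434839, minus strand): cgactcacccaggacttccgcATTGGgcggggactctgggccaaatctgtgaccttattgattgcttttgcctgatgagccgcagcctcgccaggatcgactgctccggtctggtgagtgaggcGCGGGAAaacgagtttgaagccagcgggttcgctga
Mcm10 (chr17:78175227-78175386, plus strand): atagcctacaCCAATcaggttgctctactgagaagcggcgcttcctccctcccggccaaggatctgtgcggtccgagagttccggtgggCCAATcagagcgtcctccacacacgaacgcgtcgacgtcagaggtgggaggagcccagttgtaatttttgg
Rfc4 (chr11:91254113-91254272, plus strand): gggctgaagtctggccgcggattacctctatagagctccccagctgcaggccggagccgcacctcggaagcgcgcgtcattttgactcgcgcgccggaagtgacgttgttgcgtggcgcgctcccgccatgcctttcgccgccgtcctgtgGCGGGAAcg

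Cdc45 holds 4 CCAAT boxes between 146 and 74 bases before its start and none of the E2F letters searched. Mcm5 holds 3 CCAAT boxes, the E2F letters in the last 7 bases before its start, and a second E2F match outside the stretch shown. Gins3 holds 1 of each, Mcm10 holds 2 CCAAT boxes and no E2F match, and Rfc4 holds 1 E2F match and no CCAAT box. Of the 36 genes, 30 are in the RefSeq promoter table, which gives 250 bases before and 50 after each start. The E2F letters were found for 18 of these 30 genes (60.0%), beside 12.9% of the 9223 tested genes and 7.03% of the 27457 genes in that table. CCAAT was found for 20 of 30 (66.7%), beside 39.0% of tested genes and 39.6% of all. Both were found for 14 of 30 (46.7%), beside 5.31% of tested genes. Among 17 mitosis genes in the table, 2 (11.8%) held the E2F letters and 14 (82.4%) held CCAAT. Among 39 other replication genes in the table, 22 (56.4%) held the E2F letters, 16 (41.0%) held CCAAT and 6 (15.4%) held both, and the differences between these sets were not tested. A match is a description of letters, not a site shown to be bound, and a gene without one may hold other forms of a site.

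Of 11 origin licensing genes none was called, beside 0.228% of all genes tested, so that count says little about them. In 3 of the 11 all BCAA libraries lay above all vehicle libraries, beside 9.29% of all genes tested. In 0 of the 11 all lay below, beside 8.76%. In sign 6 were above 0 and 5 below 0, and their median log2 fold change was 0.10. That median was 0.0045 without vehicle replicate 2, 0.036 without BCAA replicate 2 and 0.038 without vehicle replicate 3, and 0.07 to 0.14 without any one of the others. Mcm5, a subunit of the ring helicase, was at 4.30, 4.19 and 4.39 CPM in vehicle replicates 1 to 3 and at 5.4, 6.46 and 6.18 CPM in BCAA replicates 1 to 3. The vehicle libraries were close together, and all 3 BCAA libraries lay above them. The means were 4.29 ± 0.0996 CPM with vehicle against 6.01 ± 0.551 CPM with BCAA (SD, n = 3). The log2 fold change was 0.49 (SE 0.17, 95% interval 0.11 to 0.86), with an unadjusted p of 0.0143 and an adjusted p of 0.296 by edgeR. Cdt1, the loading factor of the ring, was at 7.45, 7.81 and 7.21 CPM with vehicle and at 9.25, 9.25 and 8.38 CPM with BCAA. The groups did not overlap, but the log2 fold change of 0.26 (SE 0.14) had an adjusted p of 0.494 by edgeR. Geminin (Gmnn), which binds and blocks Cdt1, was at 15.4 ± 2.76 CPM with vehicle against 15.2 ± 1.38 CPM with BCAA, and its groups overlapped.

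The other ring subunits, whose proteins work with Mcm5 as one ring, had log2 fold changes nearer 0. Mcm7 was at 30.6, 29.2 and 30.8 CPM with vehicle and at 32.2, 31.2 and 34.6 CPM with BCAA. Its groups did not overlap, but the log2 fold change was only 0.11 (SE 0.09, 95% interval -0.08 to 0.30; edgeR's adjusted p = 0.665). Mcm2 gave a log2 fold change of -0.07 (95% interval -0.35 to 0.20) and Mcm6 one of -0.01 (95% interval -0.32 to 0.31). Mcm3 and Mcm4 were at 0.14 each, with intervals of -0.16 to 0.43 and -0.12 to 0.41, and ran from 0.059 to 0.19 and from 0.036 to 0.28 with 1 library left out. The interval of Mcm5 overlaps those of all 5 other subunits, and the difference between subunits was not tested. Of the loading factors, Cdc6 was at 3.11 ± 0.220 CPM with vehicle against 3.08 ± 0.134 CPM with BCAA, a log2 fold change of -0.01 with an interval of -0.47 to 0.45. The origin recognition subunits Orc1 and Orc6 gave log2 fold changes of 0.10 (SE 0.26) and -0.04 (SE 0.19).

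Genes that turn a licensed origin into an active fork held the largest values. All 6 had a fold change above 0, beside 50.8% of all genes tested, with a median log2 fold change of 0.36. Of these, 3 were higher at an unadjusted p under 0.05 by edgeR, beside 5.95% of all genes tested. The median was 0.26 without vehicle replicate 3, 0.27 without BCAA replicate 3 and 0.36 to 0.48 without any one of the others. The signs of Cdc7 and Gins1 turned in some fits with 1 library left out. Cdc45, which joins the Mcm ring to form CMG, was at 2.79, 3.62 and 3.06 CPM in vehicle replicates 1 to 3 and at 5.20, 4.56 and 7.28 CPM in BCAA replicates 1 to 3. These values came from 39, 57 and 39 counts and from 77, 72 and 93 counts. All BCAA libraries lay above all vehicle libraries, and BCAA replicate 3 was the highest. The means were 3.16 ± 0.422 and 5.68 ± 1.42 CPM, a log2 fold change of 0.83 (SE 0.22, 95% interval 0.35 to 1.31; edgeR's unadjusted p = 0.0024 and adjusted p = 0.144). Without BCAA replicate 3 the log2 fold change was 0.62 (adjusted p = 0.417), and the adjusted p ran from 0.0634 without the low-count filter to 0.417 over the alternatives that gave one. DESeq2 gave an unadjusted p of 0.00311 and no adjusted p, since its own filter set this gene aside.

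Gins3, one of the 4 GINS subunits of CMG, was at 1.93, 1.27 and 1.097 CPM with vehicle and at 2.83, 1.90 and 2.90 CPM with BCAA, from 14 to 42 counts per library. BCAA replicate 2 lay just below vehicle replicate 1, so the groups overlapped. The log2 fold change was 0.81 (SE 0.31, 95% interval 0.14 to 1.49; edgeR's unadjusted p = 0.0212 and adjusted p = 0.331), and it was 1.08 without vehicle replicate 1 (adjusted p = 0.0917) and 0.67 without vehicle replicate 3 (adjusted p = 0.515). Gins1 and Gins2 gave log2 fold changes of 0.10 (SE 0.29) and 0.12 (SE 0.12), with groups that overlapped. Gins4, the fourth subunit and not one of the 36 genes, was at 9.47 ± 0.937 CPM with vehicle against 11.9 ± 0.793 CPM with BCAA, with no overlap (log2 fold change 0.33, SE 0.13; edgeR's adjusted p = 0.358).

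Mcm10, which helps CMG start to move, was at 3.22, 2.60 and 2.04 CPM with vehicle and at 3.17, 3.86 and 4.93 CPM with BCAA. The lowest BCAA library lay just below the highest vehicle library. The log2 fold change was 0.59 (SE 0.25, 95% interval 0.06 to 1.13; edgeR's unadjusted p = 0.0325 and adjusted p = 0.369). Without BCAA replicate 3 it was 0.42 (adjusted p = 0.645) and without vehicle replicate 3 it was 0.45 (adjusted p = 0.583). Cdc7, the kinase that acts on the Mcm ring, was at 5.55 ± 0.777 CPM with vehicle against 5.61 ± 0.733 CPM with BCAA, with a log2 fold change of 0.01 (95% interval -0.39 to 0.40). Dbf4, its activating partner, had too few counts for a narrow value. It was at 0.668 ± 0.240 CPM with vehicle against 1.03 ± 0.394 CPM with BCAA (chosen after its values were seen). Other factors of origin firing, also named with their values known, differed in sign. Ticrr, Recql4 and Mtbp gave log2 fold changes of 0.40 (SE 0.35), 0.21 (SE 0.21) and 0.09 (SE 0.23). Donson and Topbp1 gave -0.008 (SE 0.16) and -0.05 (SE 0.12). The groups overlapped for each of these genes, and none was called.

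**Figure D2:**
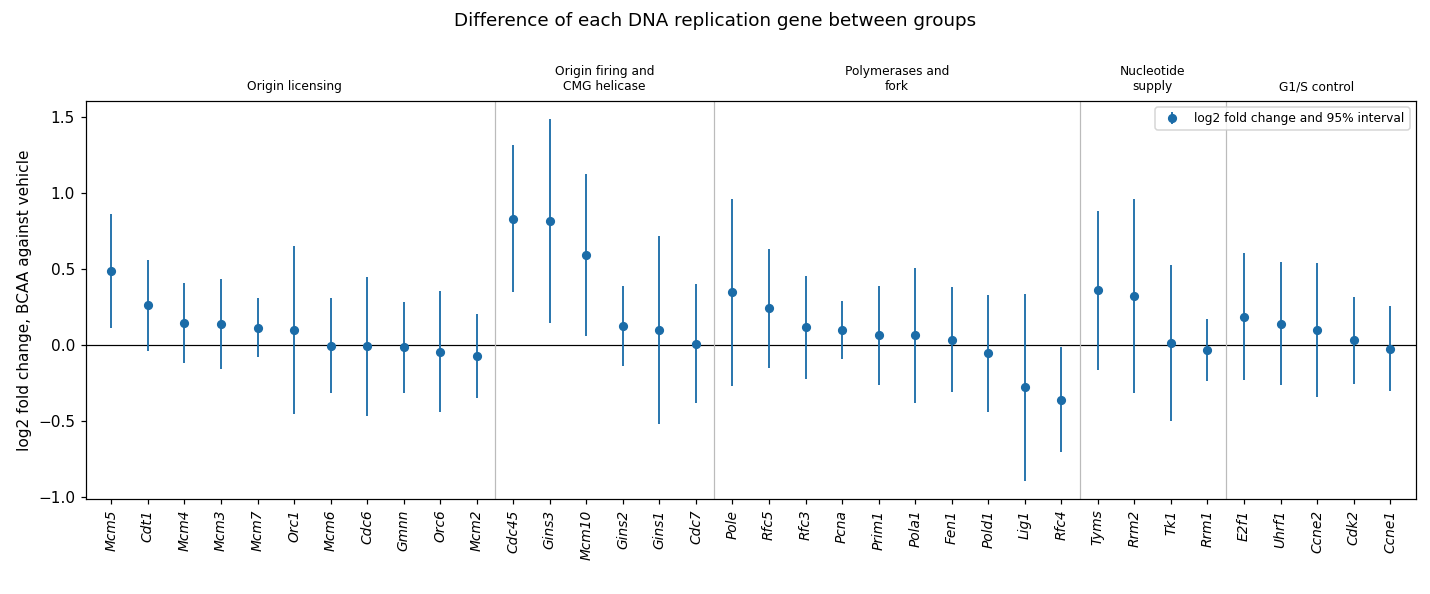
Log2 fold change of each gene, BCAA against vehicle, with its 95% interval from edgeR, by role and ordered within each role. The intervals of Cdc45, Gins3, Mcm10 and Mcm5 lie above 0 and that of Rfc4 below 0, before adjustment over all genes, and the other 31 intervals span 0.

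Of 10 polymerase and fork genes none was called, beside 0.228% of all genes tested. In sign 7 were above 0 and 3 below 0, with a median log2 fold change of 0.06. The sign of that median turned with 1 library, since it was -0.04 without BCAA replicate 2, beside 0.10 without vehicle replicate 1 and 0.04 to 0.07 without any one of the others. Rfc4, a subunit of the clamp loader that places PCNA on DNA, was at 10.7, 8.51 and 8.31 CPM with vehicle and at 7.83, 7.35 and 6.18 CPM with BCAA. It was the only one of the 36 genes whose BCAA libraries all lay below the vehicle libraries. The log2 fold change was -0.36 (SE 0.16, 95% interval -0.71 to -0.02; edgeR's unadjusted p = 0.0409 and adjusted p = 0.403), and it was -0.23 (adjusted p = 0.51) without vehicle replicate 1, the highest library. Rfc5, another clamp loader subunit, lay the other way, at 3.80, 4.44 and 4.70 CPM with vehicle and at 5.26, 4.94 and 5.09 CPM with BCAA (log2 fold change 0.24, SE 0.18; edgeR's adjusted p = 0.643). Rfc3 gave a log2 fold change of 0.11 (SE 0.16). Rfc1 and Rfc2, clamp loader subunits outside the 36 genes, gave log2 fold changes of -0.03 (SE 0.08) and 0.14 (SE 0.15). Both were chosen after their values were seen. The clamp loader genes thus differed in sign, and none was called.

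Pcna, the sliding clamp that holds polymerases on DNA, had the most counts of the 36 genes and so the smallest counting error. It was at 62.2, 59.0 and 60.0 CPM with vehicle and at 56.6, 65.5 and 72.1 CPM with BCAA, with BCAA replicate 1 the lowest and BCAA replicate 3 the highest of all 6 libraries. The log2 fold change was 0.10 (95% interval -0.09 to 0.29), and it was 0.015 without BCAA replicate 3 and 0.18 without BCAA replicate 1. The catalytic subunits of the replicative polymerases, Pola1, Pold1 and Pole, gave log2 fold changes of 0.06 (SE 0.21), -0.06 (SE 0.18) and 0.35 (SE 0.29). Pole was at 1.93, 2.03 and 3.13 CPM with vehicle and at 3.92, 2.72 and 2.27 CPM with BCAA, and its groups overlapped (edgeR's adjusted p = 0.679). Leaving out BCAA replicate 1 gave a log2 fold change of 0.09, beside 0.23 without vehicle replicate 1 and 0.59 without vehicle replicate 3. Prim1, the primase that makes RNA primers, was at 14.2 ± 1.53 and 14.8 ± 2.97 CPM. The flap nuclease Fen1 gave a log2 fold change of 0.03 (SE 0.16) and the DNA ligase Lig1 one of -0.28 (SE 0.29), both of which process the lagging strand. Lig1 was at 1.79, 3.56 and 2.66 CPM with vehicle and at 1.96, 2.41 and 2.27 CPM with BCAA, so the vehicle libraries spanned all BCAA libraries. Without vehicle replicate 2 its log2 fold change was -0.0048.

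Of the nucleotide supply genes 0 of 4 were called, beside 0.228% of all genes tested. Their groups overlapped in all 4, where 9.29% of all genes tested lay wholly higher with BCAA and 8.76% wholly lower. Their median log2 fold change was 0.17. The 95% intervals of Rrm2 and Tyms reached 0.96 and 0.88, so a change near a doubling in these 2 genes is not excluded. The median was 0.0067 without BCAA replicate 1, and 0.125 to 0.22 without any one of the other libraries. Tyms, which makes thymidylate, was at 2.43, 2.98 and 3.76 CPM with vehicle and at 3.65, 3.23 and 4.93 CPM with BCAA (log2 fold change 0.36, SE 0.24, 95% interval -0.16 to 0.88; edgeR's adjusted p = 0.603). Without BCAA replicate 3 it was 0.17, and leaving out vehicle replicate 1 gave 0.22. Ribonucleotide reductase makes deoxynucleotides and has a large subunit, Rrm1, and a small subunit, Rrm2, that is made in S phase. Rrm1 was at 41.2 ± 2.98 CPM with vehicle against 40.3 ± 3.9 CPM with BCAA, and its interval of -0.24 to 0.17 bounds a difference in either direction. Rrm2 was at 1.79, 1.90 and 2.51 CPM with vehicle and at 3.51, 2.28 and 1.88 CPM with BCAA, and its log2 fold change of 0.32 (SE 0.30) was 0.02 without BCAA replicate 1. Thymidine kinase (Tk1) gave a log2 fold change of 0.01 (SE 0.24).

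G1/S genes gave 4 values above 0 and 1 below 0, with a median log2 fold change of 0.10. None of these 5 genes was called, beside 0.228% of all genes tested. The median was 0.022 without vehicle replicate 2, 0.047 without vehicle replicate 3 and 0.060 without BCAA replicate 3, and 0.07 to 0.12 without any one of the others. E2f1, an activator of many replication genes, was at 4.80, 6.86 and 5.80 CPM with vehicle and at 7.16, 7.54 and 5.09 CPM with BCAA. The log2 fold change was 0.18 (SE 0.20, 95% interval -0.23 to 0.60; edgeR's adjusted p = 0.761), with overlapping groups. With 1 library left out it ran from 0.06 (without vehicle replicate 1) to 0.33 (without BCAA replicate 3), with 0.075 when BCAA replicate 2 was left out and 0.32 when vehicle replicate 2 was. The cyclins that pair with Cdk2 at the G1/S border, Ccne1 and Ccne2, gave log2 fold changes of -0.02 (SE 0.13) and 0.10 (SE 0.21), and Cdk2 itself one of 0.03 (SE 0.13). Uhrf1, which carries DNA methylation through replication, was at 4.22 ± 0.432 and 4.63 ± 0.350 CPM (log2 fold change 0.14, SE 0.19).

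These intervals set the size of difference the counts could hide. For 23 of the 36 genes the 95% interval lay within a 1.5-fold change in either direction and for 33 within a 2-fold change, while for Cdc45, Gins3 and Mcm10 it reached past 2-fold. Mean counts per library ran from 28.3 to 892, and 20 of the 36 genes had a mean under 100 counts. Counting alone gives an SD of 3.35% to 18.8% of the mean at such counts, with a median of 10.8%. The observed SD between replicates had a median of 14.8% of the mean with vehicle and 11.9% with BCAA. It was below the counting SD in 10 genes with vehicle and in 13 with BCAA, and above it in the others. The SE of the log2 fold change had a median of 0.18 over the 36 genes and 0.11 over all genes tested. CPM values are not divided by transcript length, so levels of different genes are not compared.

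Single libraries differed in which replication genes they held at high or low levels. The mean deviation of the 36 genes from their own means, in log2 CPM, was -0.03, -0.06 and -0.10 across vehicle replicates 1 to 3, against 0.06, 0.08 and 0.06 across BCAA replicates 1 to 3, beside deviations of -0.02 to 0.02 over all genes tested. The groups did not overlap on this mean, and they differed by 0.13. No test is given for it, because the genes were picked with earlier results of these libraries known. Vehicle replicate 1 was the lowest library for 11 of the 36 genes (30.6%) and the highest for 8 (22.2%), beside 24.7% and 23.6% of all genes tested. Vehicle replicate 3 was the lowest for 10 (27.8%) and the highest for 1 (2.78%), beside 14.6% and 13.5% of all genes tested. BCAA replicate 2 was the lowest for 1 gene and the highest for 10, where it was lowest for 10.9% and highest for 11.8% of all genes tested.

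**Figure D3:**
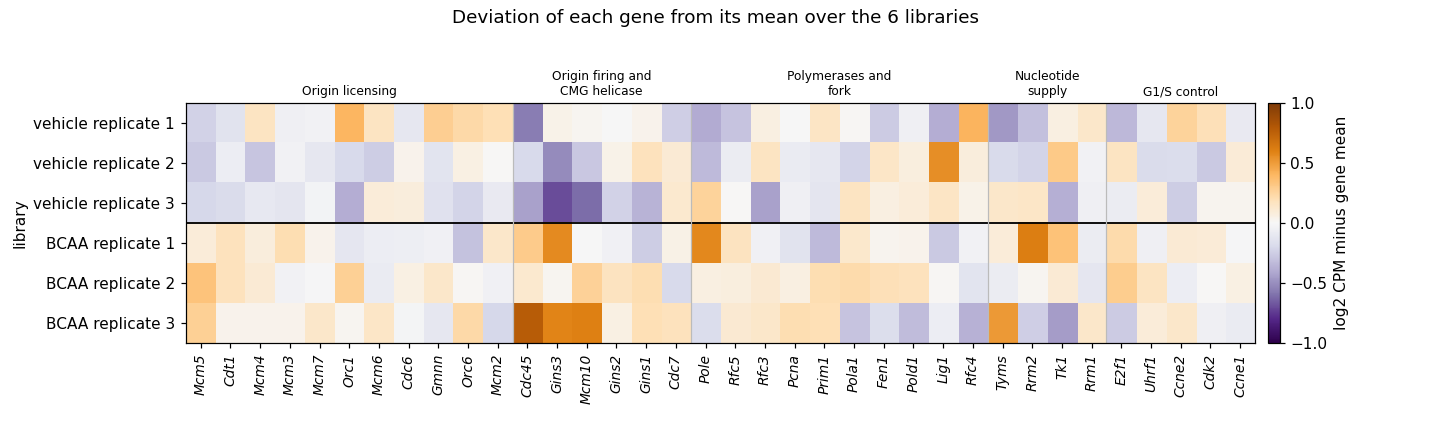
Deviation of each gene's log2 CPM from its mean over the 6 libraries, with genes in columns by role and libraries in rows, vehicle above the line and BCAA below. Cdc45, Gins3 and Mcm10 are low in vehicle replicate 3 and high in BCAA replicate 3, and no library is high or low for all genes.

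By role, the origin firing genes had mean deviations of -0.12, -0.11 and -0.37 across vehicle replicates 1 to 3, against 0.10, 0.10 and 0.40 across BCAA replicates 1 to 3. Their difference between groups was thus largest in the replicates numbered 3, which the labels do not tie together. Licensing genes were at 0.08 in vehicle replicate 1 and at -0.11 and -0.12 in the other vehicle libraries, beside 0.01, 0.09 and 0.05 with BCAA, so vehicle replicate 1 lay among the BCAA libraries for this role. In that library Orc1 (4.01 CPM), Gmnn (18.6 CPM), Mcm2 (18.4 CPM), Mcm4 (21.9 CPM) and Mcm6 (12.4 CPM) had their highest level of all 6. Fork genes were at -0.08 in vehicle replicate 1 and -0.07 in BCAA replicate 3 and higher in the other 4 libraries. Nucleotide supply genes were highest in BCAA replicate 1, at 0.24, through Rrm2 and Tk1. The summed level of the 36 genes was 387, 360 and 357 CPM with vehicle and 377, 391 and 398 CPM with BCAA, with overlap between the groups. Without vehicle replicate 1, 0 of the 36 genes were called (edgeR; 5 at an unadjusted p under 0.05), although 3.93% of all genes tested then were, and 18.2% had an unadjusted p under 0.05. None of the 36 was called either with other scaling (0.26% of all genes called with RLE factors and 0.236% with none), with no low-count filter (0.748%) or with the replicate block (0.0488%). The same held without vehicle replicate 2 (0.0803% of all genes called) or 3 (0.0964%) and without BCAA replicate 1 (0.0564%), 2 (0.0643%) or 3 (0.0642%).

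Of 47 further genes of the replication machinery listed, 45 were tested, and 33 were above 0 and 12 below 0 in sign. None was called (edgeR; 3 at an unadjusted p under 0.05, all higher). Over all genes tested, 0.228% were called, 50.8% were above 0 and 5.95% were higher at that unadjusted p. The median log2 fold change of the 45 genes was 0.12. It was 0.058 without vehicle replicate 3, 0.071 without vehicle replicate 2 and 0.077 without BCAA replicate 2. Without vehicle replicate 1 a single one, Orc4, was called, where 3.93% of all genes tested were. Chaf1a, a subunit of the chromatin assembly factor that places histones behind the fork, was at 6.78 ± 0.409 CPM with vehicle against 8.93 ± 1.38 CPM with BCAA, with no overlap (log2 fold change 0.40, SE 0.16; edgeR's adjusted p = 0.345). Pole2, a subunit of polymerase epsilon, was at 1.58, 0.762 and 1.96 CPM with vehicle and at 2.77, 2.28 and 2.04 CPM with BCAA (log2 fold change 0.75, SE 0.34; adjusted p = 0.415 by edgeR). Its log2 fold change was 0.42 without vehicle replicate 2, its lowest library. Pold2, a subunit of polymerase delta, was at 14.01 ± 2.03 and 11.2 ± 1.84 CPM (log2 fold change -0.32, SE 0.15; adjusted p = 0.434 by edgeR). Of 10 replication checkpoint genes, which slow S phase when forks stall, 8 were above 0 and none was called, beside 50.8% and 0.228% of all genes. None had an unadjusted p under 0.05 by edgeR, beside 11.8% of all genes tested. DESeq2 called none of them, beside 1.75% of the genes it adjusted. Hus1, part of the checkpoint clamp, gave a log2 fold change of 0.17 (SE 0.09) and the kinase Wee1 one of 0.20 (SE 0.13). The clamp partners Rad9a and Rad1 were at 0.21 (SE 0.14) and 0.15 (SE 0.12).

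Of 32 tested genes that control the passage from G1 to S, 20 were above 0 and 12 below 0 in sign. Their median log2 fold change was 0.06, and none was called (edgeR; 7 higher and 1 lower at an unadjusted p under 0.05). At that p 5.95% of all genes tested were higher and 5.84% lower, and 50.8% were above 0 in sign. Leaving out BCAA replicate 3 gave the 32 genes a median of 0.15 and leaving out vehicle replicate 1 one of 0.105. It was 0.06 to 0.09 without any one of the others. Cyclin D1 (Ccnd1), which starts the release of E2F, was at 90.1, 87.1 and 92.5 CPM with vehicle and at 107, 106 and 107 CPM with BCAA. The BCAA libraries were close together and above all vehicle libraries (log2 fold change 0.25, SE 0.07; edgeR's adjusted p = 0.14, or 0.0243 without vehicle replicate 1). Cdkn2b, an inhibitor of the cyclin D kinases, was at 36.5, 34.1 and 35.7 CPM with vehicle and at 44.4, 45.3 and 52.0 CPM with BCAA (log2 fold change 0.41, SE 0.09; adjusted p = 0.071 by edgeR). It passed with DESeq2 (adjusted p = 0.0171), in edgeR with no low-count filter (adjusted p = 0.0185), and in edgeR when vehicle replicate 1 was left out (adjusted p = 0.0063). Those settings called 1.75%, 0.748% and 3.93% of all genes they adjusted, beside 0.228% in the edgeR test above. The Cdk2 inhibitors Cdkn1a and Cdkn1b, known as p21 and p27, gave log2 fold changes of 0.21 (SE 0.06) and 0.25 (SE 0.08), with no overlap between groups and adjusted p of 0.18 and 0.192 by edgeR. The retinoblastoma gene Rb1 was at 13.2 ± 1.13 and 16.6 ± 3.40 CPM (log2 fold change 0.33, SE 0.15), and its log2 fold change was 0.15 without BCAA replicate 1, its highest library. E2f4, an E2F that mainly represses, was at 61.2 ± 2.36 CPM with vehicle against 54.5 ± 2.82 CPM with BCAA (log2 fold change -0.17, SE 0.08; adjusted p = 0.423 by edgeR).

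**Figure D4:**
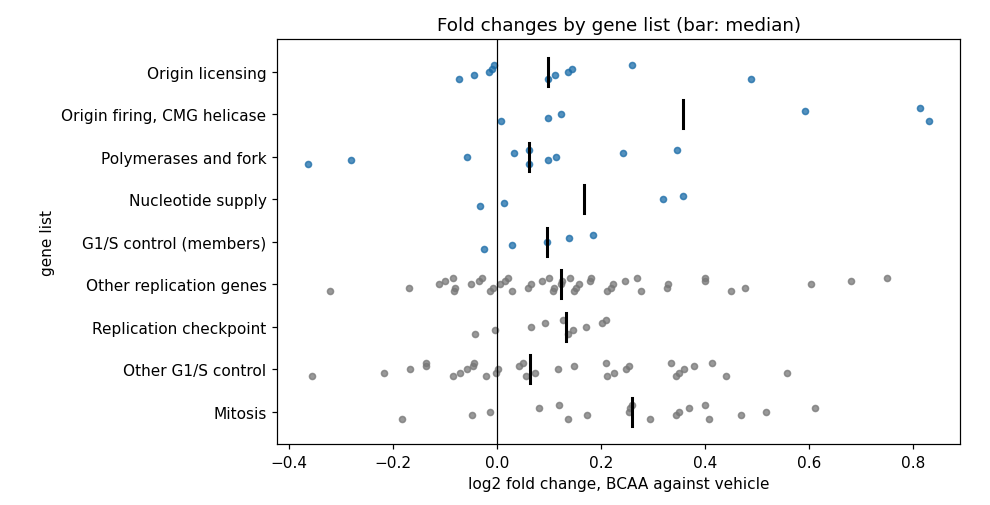
Log2 fold change of each tested gene, BCAA against vehicle, by list, with the 36 genes in blue by role, other lists in grey and a bar at each median. Medians run from 0.06 for polymerase and fork genes to 0.36 for origin firing genes, with mitosis genes at 0.26.

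Mitosis genes had a median log2 fold change of 0.26 over 19 tested genes, beside 0.10 for the 36 replication genes. In sign 16 were above 0, and none was called (edgeR; 6 at an unadjusted p under 0.05, all higher). Of all genes tested, 0.228% were called, 50.8% were above 0 and 5.95% were higher at that unadjusted p. Mki67, the proliferation antigen, was at 12.1, 8.95 and 7.68 CPM with vehicle and at 15.5, 13.9 and 14.5 CPM with BCAA, with no overlap (log2 fold change 0.61, SE 0.16; adjusted p = 0.132 by edgeR). Top2a, the topoisomerase that untangles copied DNA, was at 13.4 ± 0.722 and 17.0 ± 1.85 CPM (log2 fold change 0.34, SE 0.12), and the spindle checkpoint kinase gene Bub1 and the kinetochore motor gene Cenpe gave log2 fold changes of 0.41 (SE 0.16) and 0.40 (SE 0.17), the latter 0.245 without vehicle replicate 3. In edgeR without the low-count filter Mki67 was called (adjusted p = 0.0361), beside 0.748% of all genes. Without vehicle replicate 1, edgeR called 2 mitosis genes, Mki67 (adjusted p = 0.00255) and Cenpf, and 0 of the 36 replication genes. In that fit 3.93% of all genes tested were called. The difference between the lists was not tested.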

How the data were processed

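The authors deposited raw read counts per gene symbol for 6 RNA sequencing libraries, unscaled and not pooled. Per the labels' protocols, TRIzol was used for RNA and a NEBNext Ultra kit for the libraries. The submitters' processing notes name Trimmomatic, FastQC, STAR, HTSeq and rn6. The sources used here give no versions, annotation or strand setting. For want of the last, counts of Gins2, Fen1, Lig1, Rrm2, Ccne2, Cdk2 and Uhrf1 are less certain, since these 7 genes overlap another coding gene in the RefSeq table of GRCr8.

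Columns were matched to sample titles. Groups were compared by the robust quasi-likelihood test of edgeR 4.0.16 (R 4.3.3) on all 6 libraries with group as the only term, TMM scaling and filterByExpr (minimum count 10, minimum total 15). P-values were adjusted by Benjamini-Hochberg over 12298 genes and called under 0.05. The SE is the log2 fold change divided by the root of F, and CPM uses TMM-scaled totals. Deviations use log2 CPM with a prior count of 2. DESeq2 1.42.0, other scaling, no low-count filter, a replicate block and each library left out were alternatives. The fit was tested on simulated data. Counts of every pair of libraries differed beyond counting noise (chi-square per degree of freedom from 2.65 to 18.1). The 36 genes and all lists were chosen with earlier results of these data known. The rule for naming chose the 10 genes with the smallest p, the gene with the smallest p in each role and the 3 below 0 with the smallest p. It also chose up to 4 genes with the smallest p of each other list. The textbook controls Cdkn1a, Cdkn1b, Ccnd1, Rb1 and E2f4 were added. Not every gene so named has its level, interval and p-value printed. List genes without a matching symbol are not analysed here. Pclaf was matched under an older symbol.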

Additional observations from a re-analysis of the deposited data

How the results depend on the processing

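None of the 36 replication genes was called under any of the 11 alternatives, although DESeq2 gave an adjusted p for only 10 of them. The count of all genes called was 28, and it was 144 with DESeq2, 124 without the low-count filter, 6 with the replicate block and 7 to 491 with 1 library left out, the highest without vehicle replicate 1. The median log2 fold change of the 36 genes was 0.13 without scaling factors, and 0.057 to 0.135 with 1 library left out, lowest without vehicle replicate 3 and highest without vehicle replicate 1. The difference in their mean deviation was 0.16 without scaling factors. Without scaling factors 30 of the 36 genes, not 26, lay above 0, and the median of all genes was 0.033. The labels do not say whether equally numbered libraries are paired. Deviations from the group means of equally numbered libraries correlated at -0.07, 0.11 and -0.15 across genes. Those of unequally numbered libraries correlated at -0.08 to 0.15, so these values cannot decide whether the libraries are paired. With the block the median of the 36 genes was 0.10. Of the 36 genes, 19 kept their sign under all 11 alternatives. The other 17 lay near 0. Without scaling factors Cdc6 was at 0.019, Gmnn at 0.018, Mcm6 at 0.025 and Ccne1 at 0.0046. With 1 library left out the log2 fold change ran from -0.0517 to 0.374 in Orc1, -0.173 to 0.0836 in Orc6, -0.0639 to 0.0291 in Cdc6, -0.0934 to 0.144 in Gmnn, -0.169 to 0.0124 in Mcm2, -0.13 to 0.0802 in Mcm6, -0.103 to 0.109 in Cdc7, -0.0439 to 0.241 in Gins1, -0.0464 to 0.197 in Pola1, -0.0316 to 0.218 in Prim1, -0.172 to 0.0675 in Pold1, -0.0429 to 0.23 in Rfc3, -0.0811 to 0.121 in Fen1, -0.114 to 0.0284 in Rrm1, -0.174 to 0.199 in Tk1, -0.0738 to 0.0202 in Ccne1 and -0.0958 to 0.141 in Cdk2. The causes of these shifts were not tested.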
